A study of Mus musculus with 21 samples.

Results

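The genes described here code for proteins of the cytosolic ribosome. They were taken as the rows of the count table whose identifier maps to a protein-coding mouse gene with a symbol that begins Rpl or Rps followed by a digit, p or a. The S6 kinases (Rps6k genes) were left out, and at least 10 counts over all libraries were required, which gave 92 of 54446 rows. Of these, 31 code for proteins of the small subunit and 46 for proteins of the large subunit, and these 77 are called canonical below. A further 8 are paralogs of a canonical gene (Rpl3l, Rpl7l1, Rpl10l, Rpl22l1, Rpl36al, Rpl39l, Rps27l and Rps27rt), 6 carry a pseudogene-type name but are annotated as protein coding, and Rps19bp1 codes for a regulator of Sirt1 rather than for a ribosomal protein. The small subunit genes Fau and Rack1 do not match the pattern and are given separately.

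RNA-seq counts came from 21 libraries of cells sorted from the bone marrow of C57BL/6 mice at 12 weeks of age, with Phf6 either intact (wild type, WT) or knocked out (KO). Long-term haematopoietic stem cells (LT-HSC) gave 2 WT and 3 KO libraries, and the multipotent progenitor populations MPP2 and MPP3 each gave 4 WT and 4 KO libraries. The sort stained CD150, CD48, cKit, Sca-1 and lineage antigens but not Flt3, and took 100 to 200 cells per library from 4 pairs of WT and KO mice. No source used here gives the KO allele, any Cre that made it or whether other tissues carried it. The questions were whether the genes of the ribosome changed when Phf6 was lost, and how they differed between the 3 populations within each genotype.

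A ribosome holds 1 copy of nearly every one of these proteins, each from its own gene, and the mRNAs share a terminal oligopyrimidine tract through which mTORC1 controls their translation together. Haematopoietic stem cells are known for a low rate of protein synthesis that rises as they differentiate. Inherited loss of a single ribosomal protein causes Diamond-Blackfan anaemia, and RPL5, RPL10, RPL11 and RPL22 are mutated in human T-cell acute lymphoblastic leukaemia, as is PHF6, which codes for a nuclear protein with plant homeodomain fingers.

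The Phf6 counts matched the labels, with 1545 to 5204 counts in the 10 WT libraries and 43 to 395 in the 11 KO libraries. Its fitted KO minus WT difference was -3.96 ± 0.59 (log2, SE) for LT-HSC, -3.54 ± 0.48 for MPP2 and -3.86 ± 0.49 for MPP3, with adjusted p of 0.0371, 0.0104 and 0.00376 (edgeR quasi-likelihood test). Library totals ran from 18892723 to 31611366 counts. The summed level of 8 LT-HSC markers was 949 to 1382 CPM (counts scaled to a common library size) in the 5 LT-HSC libraries and 259 to 945 CPM in the 16 progenitor libraries. Immunoglobulin genes, which mark B and plasma cells, took 45.8% of the counts of KO MPP2 1, 25.8% of KO MPP3 1 and at most 4.08% elsewhere. KO MPP3 2 stood apart in other measures, with 12.8% of counts from mitochondrially encoded genes, 10.3% from rRNA genes, the smallest total and the highest LT-HSC marker sum of the progenitors. Most of that sum was Hlf, at 565 CPM, against at most 332 CPM in the LT-HSC libraries. Each other LT-HSC marker was lower in every KO MPP3 library than in every LT-HSC library. Slamf1, for one, was at most 0.869 CPM in KO MPP3 and at least 52.0 CPM in LT-HSC. Library titles carry numbers from 52 to 64 or from 162 to 212, and these 2 ranges are compared as below and above 100. Neutrophil markers (7 genes) summed to 14963 CPM in KO MPP2 1, 4488 CPM in WT LT-HSC 2 and 1774 CPM in WT MPP3 1, and to at most 320 CPM elsewhere.

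The counts of the 92 genes made up 5.90% ± 1.03 (SD, n = 21) of a library. The share was 5.81% and 6.13% in the WT LT-HSC libraries, 4.98%, 6.39% and 7.26% in KO LT-HSC, 5.20%, 6.16%, 5.72% and 7.24% in WT MPP2, 2.46%, 6.30%, 6.28% and 5.97% in KO MPP2, 5.65%, 6.24%, 6.00% and 6.19% in WT MPP3, and 4.42%, 6.60%, 6.45% and 6.47% in KO MPP3. All 6 groups overlapped, and the 2 lowest values were those of the libraries rich in immunoglobulin. With immunoglobulin, mitochondrially encoded and rRNA genes out of the total, the share was 4.85% in KO MPP2 1 and 6.24% in KO MPP3 1, and it was 8.60%, the highest of all, in KO MPP3 2. The plot of shares and shifts by library shows both measures.

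**Figure D1:**
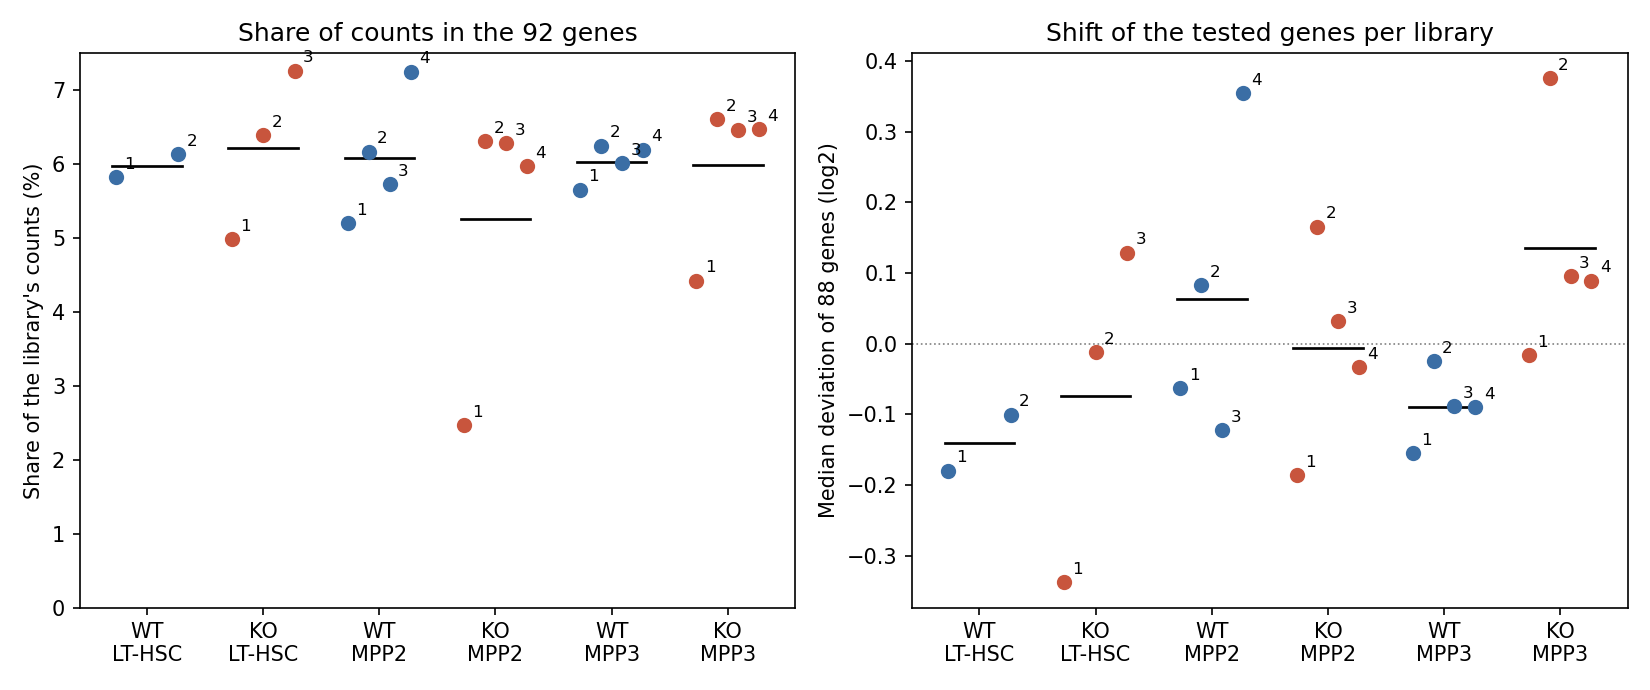
Left, share of each library's counts (%) in the 92 genes; right, median over the 88 tested genes of the log2 deviation from each gene's mean over the 21 libraries. Points are libraries labelled with their replicate number (WT blue, KO red) and lines are group means. KO MPP2 1 has the lowest share, 2.46%, while KO MPP3 2 (0.38) and WT MPP2 4 (0.35) have the highest shifts and KO LT-HSC 1 (-0.34) the lowest.

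Levels of the canonical genes spanned a wide range. Per kilobase of the principal transcript, the highest mean over all libraries was that of Rps14 of the small subunit, at 2637 CPM per kb. Rpl37a followed at 2184 and Rps27 at 2158. This order rests on annotated lengths, the longest among tied transcripts. The lowest were Rpl24 at 3.33, Rps10 at 8.79, Rpl13a at 58.7 and Rpl23a at 70.8 CPM per kb. These low genes have near-identical processed copies elsewhere in the genome, and how the deposited counts treat reads that match several copies is given in no source used here, so their levels are uncertain. Counts at annotated ribosomal protein pseudogenes came to 3.35 to 3.76 per 100 counts at the 92 genes.

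Across the 6 groups the canonical genes varied little. The median of their SD between libraries of a group was 0.22 on the log2 scale, and the median range of their 6 group means was 0.32. Only 8 of 77 had a range above 0.5 (log2): Rpl13a at 0.89, Rpl24 at 0.83, Rps10 at 0.81, Rpl38 at 0.57, Rpl39 at 0.56, Rpl27 at 0.54, Rpl41 at 0.51 and Rps12 at 0.51. The 3 widest, Rpl13a, Rpl24 and Rps10, are among the genes of uncertain level.

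The paralog Rps27l was the one gene of the 88 tested that passed the threshold in any comparison. Rps27l codes for a close relative of the Rps27 protein of the small subunit, can take the place of Rps27 in the ribosome, and is known as a p53 target that binds Mdm2. It lies at chr9:66946086-66949516 (mm10, plus strand). Rpl36al, a copy of Rpl36a of the large subunit, and Rpl22l1, the paralog of the T-cell tumour suppressor Rpl22, came next in order of p in the comparisons of WT MPP2 with WT LT-HSC and WT MPP3. The starts of the 3 genes and of their canonical counterparts are shown to let the pairs be compared, each as the 70 bases before and the 30 bases from the RefSeq start in GRCm38.p6. Capitals mark the only matches of an ETS-type motif (CGGAAG) or of TATAAA on either strand within these 100 bases.
Rps27l (chr9:66946016-66946115, plus strand): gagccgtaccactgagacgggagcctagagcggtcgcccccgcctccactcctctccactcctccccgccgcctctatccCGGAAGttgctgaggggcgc
Rps27 (chr3:90213622-90213721, minus strand): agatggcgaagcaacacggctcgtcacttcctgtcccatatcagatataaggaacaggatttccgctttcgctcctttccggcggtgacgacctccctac
Rpl36al (chr12:69184054-69184153, minus strand): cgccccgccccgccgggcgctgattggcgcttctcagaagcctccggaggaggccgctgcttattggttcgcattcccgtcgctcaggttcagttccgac
Rpl36a (chrX:134585584-134585683, plus strand): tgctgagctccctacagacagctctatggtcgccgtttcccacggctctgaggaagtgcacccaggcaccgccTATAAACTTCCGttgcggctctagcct
Rpl22l1 (chr3:28805366-28805465, plus strand): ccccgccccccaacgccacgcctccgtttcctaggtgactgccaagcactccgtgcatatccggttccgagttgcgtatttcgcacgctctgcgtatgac
Rpl22 (chr4:152325656-152325755, plus strand): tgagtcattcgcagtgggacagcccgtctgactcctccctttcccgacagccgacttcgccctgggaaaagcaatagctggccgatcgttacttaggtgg

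In Rpl36a the 2 motifs lie end to end, the second one on the other strand. RefSeq start windows of 300 bases, 250 before and 50 from the start, were found for 66 of the 92 genes. CGGAAG was present on either strand in 44 of these 66 windows (66.7%), against 16.9% of the 32851 RefSeq windows of the same length. TATAAA was present in 6 of 66 (9.09%), against 13.6%. Of the 6 windows of the genes printed, CGGAAG was present in those of Rps27l, Rps27, Rpl36al and Rpl36a, and not in those of Rpl22l1 and Rpl22. These are matches of letters, and no binding was measured.

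Between WT populations, Rps27l was higher in MPP2 than in both LT-HSC and MPP3. Its level was 317 and 360 CPM in the WT LT-HSC libraries, 699, 516, 682 and 739 CPM in WT MPP2, and 395, 396, 500 and 371 CPM in WT MPP3. Every MPP2 library stood above every LT-HSC and every MPP3 library, although WT MPP2 2 and WT MPP3 3 came close. The fitted difference was 0.96 ± 0.19 (log2, SE) for WT MPP2 minus WT LT-HSC, with adjusted p = 0.0307 in edgeR, and -0.66 ± 0.15 for WT MPP3 minus WT MPP2, with adjusted p = 0.0335. The difference between WT MPP3 and WT LT-HSC was 0.30 ± 0.18 and did not pass (adjusted p = 0.719 in edgeR). Rps27l was the single gene called among the 88, against 0.63% of all 21100 genes called in WT MPP2 minus WT LT-HSC and 1.2% in WT MPP3 minus WT MPP2. Both calls were lost when only the groups compared entered the model (edgeR, adjusted p = 0.100 and 0.0678). They also rested on most single libraries. The first call was lost in 5 of 6 fits that left out 1 library and was kept only without WT MPP2 2, with edgeR adjusted p from 0.0199 to 0.434. Without WT LT-HSC 2, the library with neutrophil markers, the difference was 1.03 (adjusted p = 0.340), and WT LT-HSC then had 1 library. The second was lost in 6 of 8 and was kept without WT MPP2 2 and without WT MPP3 3, with adjusted p from 0.0171 to 0.140. The differences stayed between 0.86 and 1.05 and between -0.76 and -0.61. DESeq2 and limma voom called both.

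In KO cells the order of the populations was the same for Rps27l, with smaller differences. It was at 451, 521 and 472 CPM in KO LT-HSC, 619, 664, 741 and 615 CPM in KO MPP2, and 461, 503, 660 and 609 CPM in KO MPP3. KO MPP2 stood above all KO LT-HSC libraries and overlapped KO MPP3. The KO MPP2 minus KO LT-HSC difference was 0.45 ± 0.16 (adjusted p = 0.171, edgeR). For KO minus WT, the difference was 0.51 ± 0.19 among LT-HSC (adjusted p = 1), 0.00 ± 0.14 among MPP2 (adjusted p = 1) and 0.43 ± 0.15 among MPP3 (adjusted p = 0.88), all in edgeR. The KO LT-HSC libraries all lay above the WT ones, whereas in MPP3 the groups overlapped.

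Rps27l and Rps27 did not move together. Rps27, the canonical gene, was at 732 and 790 CPM in WT LT-HSC, 724, 772, 594 and 1034 CPM in WT MPP2, and 741, 776, 706 and 807 CPM in WT MPP3, with all 3 groups overlapping. Per count of Rps27, Rps27l had 0.43 and 0.46 counts in the WT LT-HSC libraries and 0.97, 0.67, 1.15 and 0.71 in WT MPP2. The ratio was 0.55 ± 0.11 (SD, n = 4) in WT MPP3. In KO cells it was 0.69 ± 0.092 (n = 3) for LT-HSC, 1.0 ± 0.067 (n = 4) for MPP2 and 0.74 ± 0.23 (n = 4) for MPP3. The coding sequences of the 2 genes are 76.2% identical and share no run longer than 11 bases. By contrast Rps27rt has the same coding sequence as Rps27, with 100% identity, and Rpl10-ps3 the same as Rpl10, so counts within those pairs are uncertain.

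Rpl36al followed the same order without passing the threshold. It was at 37.9 and 42.0 CPM in WT LT-HSC, 73.2, 65.8, 68.0 and 79.3 CPM in WT MPP2 and 43.6, 47.3, 54.7 and 43.0 CPM in WT MPP3, and WT MPP2 overlapped neither other group. The differences were 0.84 ± 0.19 for WT MPP2 minus WT LT-HSC (adjusted p = 0.054) and -0.60 ± 0.15 for WT MPP3 minus WT MPP2 (adjusted p = 0.0614), both in edgeR. DESeq2 called both, with adjusted p of 0.00197 and 0.00759. Its counterpart Rpl36a, whose coding sequence is 87.7% identical, was at 350 and 383 CPM in WT LT-HSC and 413, 447, 305 and 499 CPM in WT MPP2, which overlapped.

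Rpl22l1 was at 128 and 122 CPM in WT LT-HSC, 247, 174, 142 and 179 CPM in WT MPP2 and 153, 138, 129 and 128 CPM in WT MPP3. WT MPP2 stood above WT LT-HSC and overlapped WT MPP3. The fitted differences were 0.57 ± 0.19 (adjusted p = 0.196) and -0.44 ± 0.15 (adjusted p = 0.206) in edgeR. In KO MPP2 it was at 149, 154, 145 and 117 CPM, a KO minus WT difference of -0.39 ± 0.15 that had the smallest p of the 88 genes there and did not pass (adjusted p = 0.738, edgeR). Rpl22 was at 443 and 467 CPM in WT LT-HSC, and at 517, 567, 447 and 645 CPM in WT MPP2, which overlapped. The panels of the 3 pairs show the paralogs over their canonical genes.

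**Figure D2:**
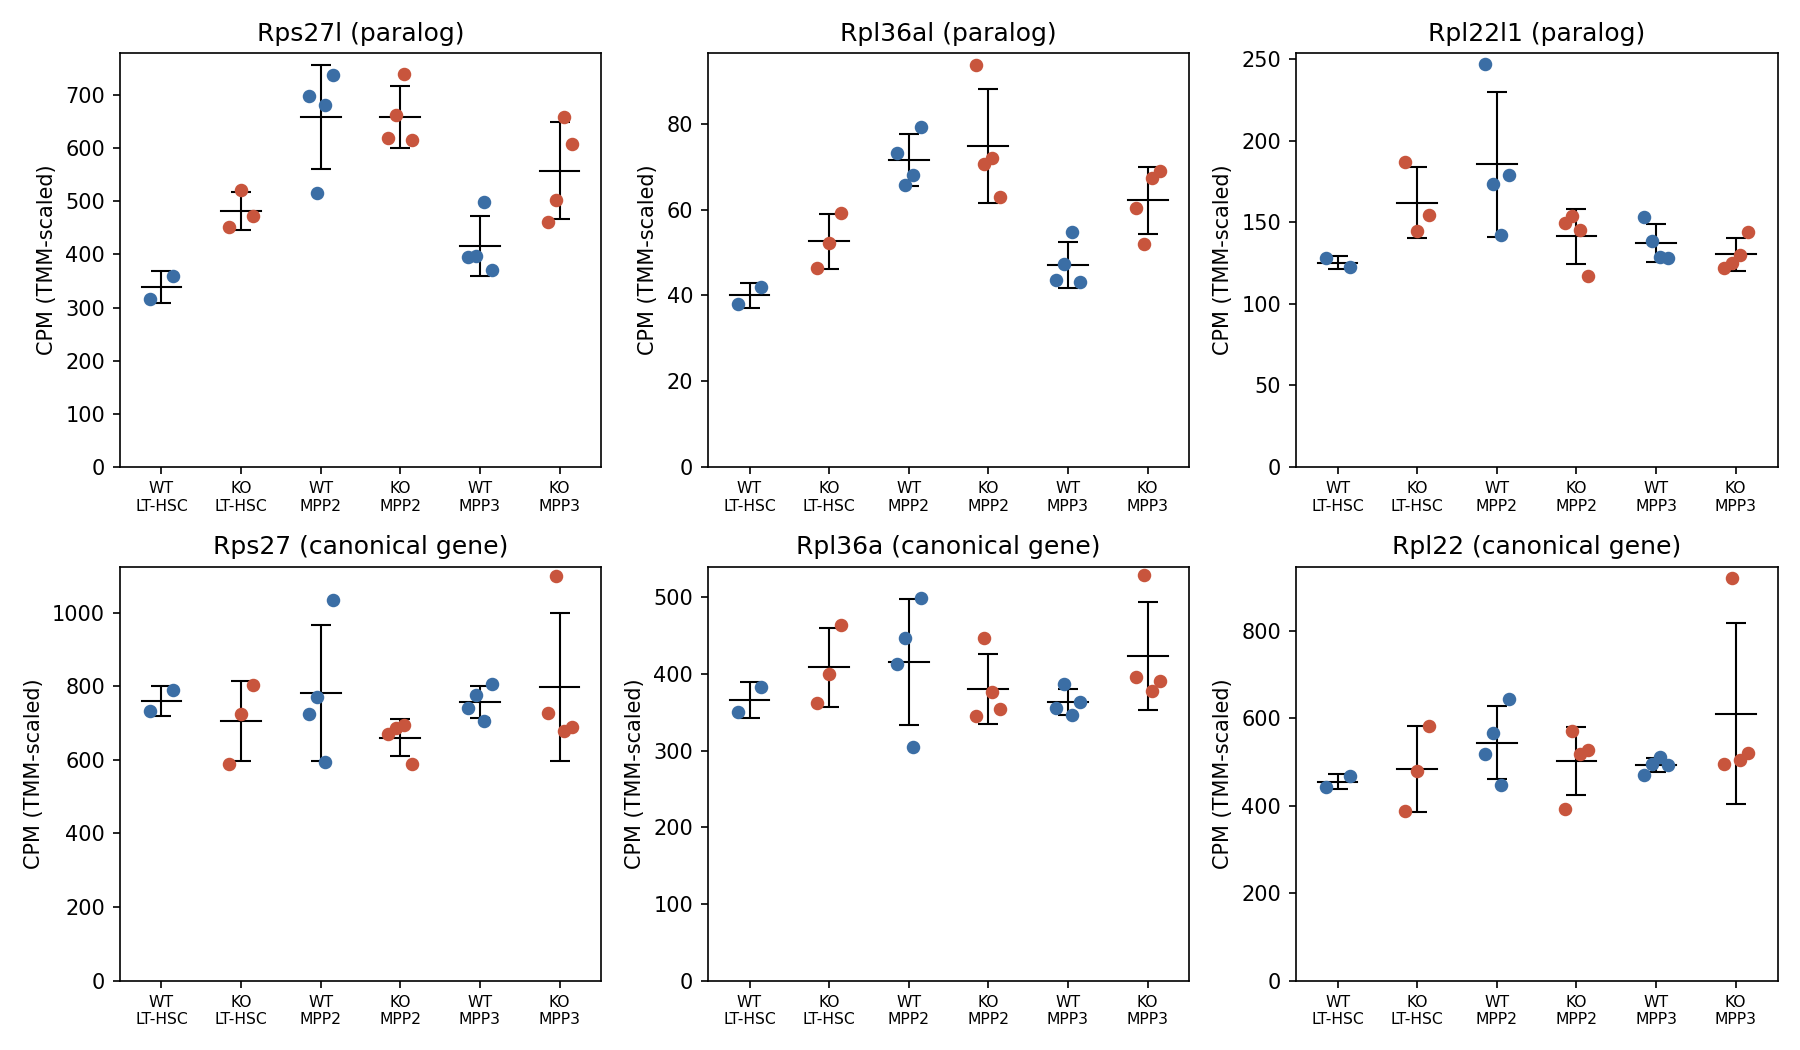
Level in CPM, scaled by TMM, of 3 paralogs (top) and their canonical counterparts (bottom) in each library of the 6 groups; each axis starts at 0, points are libraries (WT blue, KO red), lines are means and bars are 1 SD (n = 2, 3 or 4). Rps27l and Rpl36al are higher in all 4 WT MPP2 libraries than in any WT LT-HSC or WT MPP3 library, while Rps27, Rpl36a and Rpl22 are each highest in KO MPP3 2.

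The MPP2 libraries were not alike in their own markers. The summed level of 5 megakaryocyte and erythroid genes expected in MPP2 (Pf4, Gata1, Itga2b, Vwf and Klf1) was 183 to 283 CPM in the 2 WT MPP2 libraries with title numbers below 100 and 1419 to 1905 CPM in the 2 above. It was 242 and 295 CPM in the WT LT-HSC libraries and 29.2 to 51.8 CPM in WT MPP3. The sum of 6 myeloid genes expected in MPP3 (Mpo, Cebpa, Csf1r, Ctsg, Elane and Irf8) was 3835 and 1515 CPM in WT MPP2 1 and 2, within the 689 to 4550 CPM of WT MPP3, and 538 and 29.8 CPM in WT MPP2 3 and 4. The myeloid sum was 3312, 3191, 2224 and 37.1 CPM in KO MPP2 1, 2, 3 and 4, and 329 to 3982 CPM in KO MPP3. By these sums the libraries labelled WT MPP2 1 and 2 overlapped WT MPP3 in myeloid genes and WT LT-HSC in megakaryocyte and erythroid genes. Single genes did not all overlap. Gata1 was at 41.3 CPM or more in WT MPP2 and at most 34.9 CPM in WT LT-HSC. Klf1 was at 25.6 CPM or more in WT MPP2 and at most 23.3 CPM in WT LT-HSC. Vwf went the other way, with at most 34.4 CPM in WT MPP2 and at least 44.9 CPM in WT LT-HSC. Within the libraries below 100, the Rps27l difference was 0.86 ± 0.23 for WT MPP2 minus WT LT-HSC (adjusted p = 0.160) and -0.65 ± 0.22 for WT MPP3 minus WT MPP2 (adjusted p = 0.719). Within those above 100 the second was -0.68 ± 0.17 (adjusted p = 0.0644), all in edgeR, and no WT LT-HSC library had a number above 100. Immunoglobulin genes took 4.08% and 3.52% of the counts of WT MPP2 1 and 2 and at most 0.0056% of WT MPP2 3 and 4. WT MPP2 1, 3 and 4 all held more Rps27l than WT MPP2 2. The part of these differences in the Rps27l result was not tested.

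The other paralogs were at or near the limit of detection or changed little. Rpl3l, which takes the place of Rpl3 in skeletal and heart muscle, had 0 counts in both WT LT-HSC libraries, which allows up to 0.105 CPM, and was at 0.937, 0.979, 1.55 and 1.41 CPM in WT MPP3. In WT MPP2 it was at 0.524, 3.39, 0 and 0 CPM, and it did not pass in any comparison. Rpl39l, known from testis, was at 2.73 CPM at most and at 0 counts in 13 of the 21 libraries. Rpl7l1, which acts in ribosome assembly in the nucleolus, was at 107 to 291 CPM and higher in the libraries with title numbers above 100 than in those below 100 in each of the 4 progenitor groups.

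The fitted differences put the genes as a whole slightly higher in WT MPP2 than in the other WT populations, while the library shifts overlapped. The median deviations (log2) were -0.06, 0.08, -0.12 and 0.35 in WT MPP2 and -0.18 and -0.10 in WT LT-HSC. They were -0.16, -0.02, -0.09 and -0.09 in WT MPP3. Of the 88 tested, 83 had a fitted difference above 0 in WT MPP2 minus WT LT-HSC, with a median of 0.20 (log2), where 49.6% of all genes did and the median of all genes was 0.00. In WT MPP3 minus WT MPP2, 77 were below 0 with a median of -0.17, against 48.0% of all genes. In WT MPP3 minus WT LT-HSC, 59 were above 0 with a median of 0.07, against 52.1%, and 0 passed, where 1.1% of all genes did. Without overlap between the groups, 23 genes were higher and 1 lower in WT MPP2 than in WT LT-HSC, where this held for 11.6% and 15.3% of all genes. In WT MPP3 against WT LT-HSC the counts were 22 and 3, against 12.0% and 14.2%, and in WT MPP3 against WT MPP2 they were 0 and 9, against 4.87% and 5.33%. The genes share each library's composition, so these counts are not 88 independent observations. Small and large subunit genes shifted alike, with medians of 0.20 and 0.20 in the first comparison and -0.17 and -0.18 in the second. Without WT MPP2 4, the WT library with the highest shift, the medians were 0.10 and -0.07. Within the libraries below 100 they were 0.16 and -0.11, and within those above 100 the second was -0.20.

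Of single canonical genes, none passed the threshold between WT populations, and 5 had an unadjusted p below 0.05 in WT MPP2 minus WT LT-HSC. Of all 88 genes there were 9 at this level in that comparison, 1 in WT MPP3 minus WT LT-HSC and 9 in WT MPP3 minus WT MPP2, against 13.0%, 9.2% and 13.5% of all genes. The lowest adjusted p was that of Rpl35a, a large subunit gene mutated in Diamond-Blackfan anaemia, with 0.48 ± 0.17 (adjusted p = 0.224, edgeR). Rpl27 followed with 0.56 ± 0.23 and Rpl41 with 0.45 ± 0.19. Of 20 genes of the list of Diamond-Blackfan anaemia, 19 were above 0 in WT MPP2 minus WT LT-HSC with a median of 0.30, and 0 passed, against 49.6% of all genes above 0 and 0.63% called. Of the whole set, 83 of 88 were above 0.

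Loss of Phf6 changed no gene of the set past the threshold in any population. The background was as low, with 0.00474% of the 21100 genes called for LT-HSC, 0.0142% for MPP2 and 0.00948% for MPP3. At an unadjusted p below 0.05 there were 1 of 88 for LT-HSC, 1 for MPP2 and 19 for MPP3, where the shares over all genes were 2.43%, 6.72% and 5.62%. DESeq2 and limma voom also called 0 of the 88 in each population, with 18 and 14 at an unadjusted p below 0.05 in MPP3. The count of 19 in MPP3 rested on KO MPP3 2: it was 3 without that library and 6 without KO MPP2 1, KO MPP3 1 and KO MPP3 2. It was 4 within title numbers below 100 and 3 within those above. Leaving out any other single library gave 7 to 19. No gene of the set, and 0 of the 21100 genes, passed the test of a difference in the KO effect between populations (edgeR, smallest adjusted p of the set 1). At an unadjusted p below 0.05 these tests held 2 of 88 genes for MPP2 against LT-HSC, 0 for MPP3 against LT-HSC and 1 for MPP3 against MPP2, where the shares over all genes were 3.6%, 2.47% and 4.47%.

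The shifts of the set differed in sign between populations. KO minus WT was above 0 for 73 of 88 genes in LT-HSC (median 0.10, against 50.3% of all genes) and for 83 in MPP3 (median 0.23, against 50.5%). In MPP2, 64 were below 0 (median -0.07, against 48.3% of all genes). In MPP3, 19 genes were higher in every KO library than in every WT library, and 1, Rpl3l, was lower, where this held for 1.07% and 1.62% of all genes. In LT-HSC these counts were 7 and 0, against 7.53% and 10.8%, and in MPP2 they were 0 and 0, against 1.43% and 1.08%. Without KO MPP3 2 the median in MPP3 was 0.14 and the genes without overlap were 24, against 3.83% of all genes. Without KO MPP2 1, KO MPP3 1 and KO MPP3 2 the median in MPP3 was 0.17, in a model where the median of all genes was -0.10. With 2 KO and 4 WT libraries left in MPP3, 62 genes were higher and 2 lower without overlap. Of all genes this held for 11.6% and 11.6%. In MPP2 the median was 0.03 without WT MPP2 4, with 55 genes above 0, and -0.01 without KO MPP2 1. In LT-HSC the direction rested on KO LT-HSC 3, without which the median was -0.0071 and 40 genes were above and 48 below 0. It was 0.20 without KO LT-HSC 1. Within the libraries below and above 100 the median in MPP3 was 0.27 and 0.15, in MPP2 it was -0.01 and -0.14, and in LT-HSC it was 0.02 below 100, with no WT library above.

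**Figure D3:**
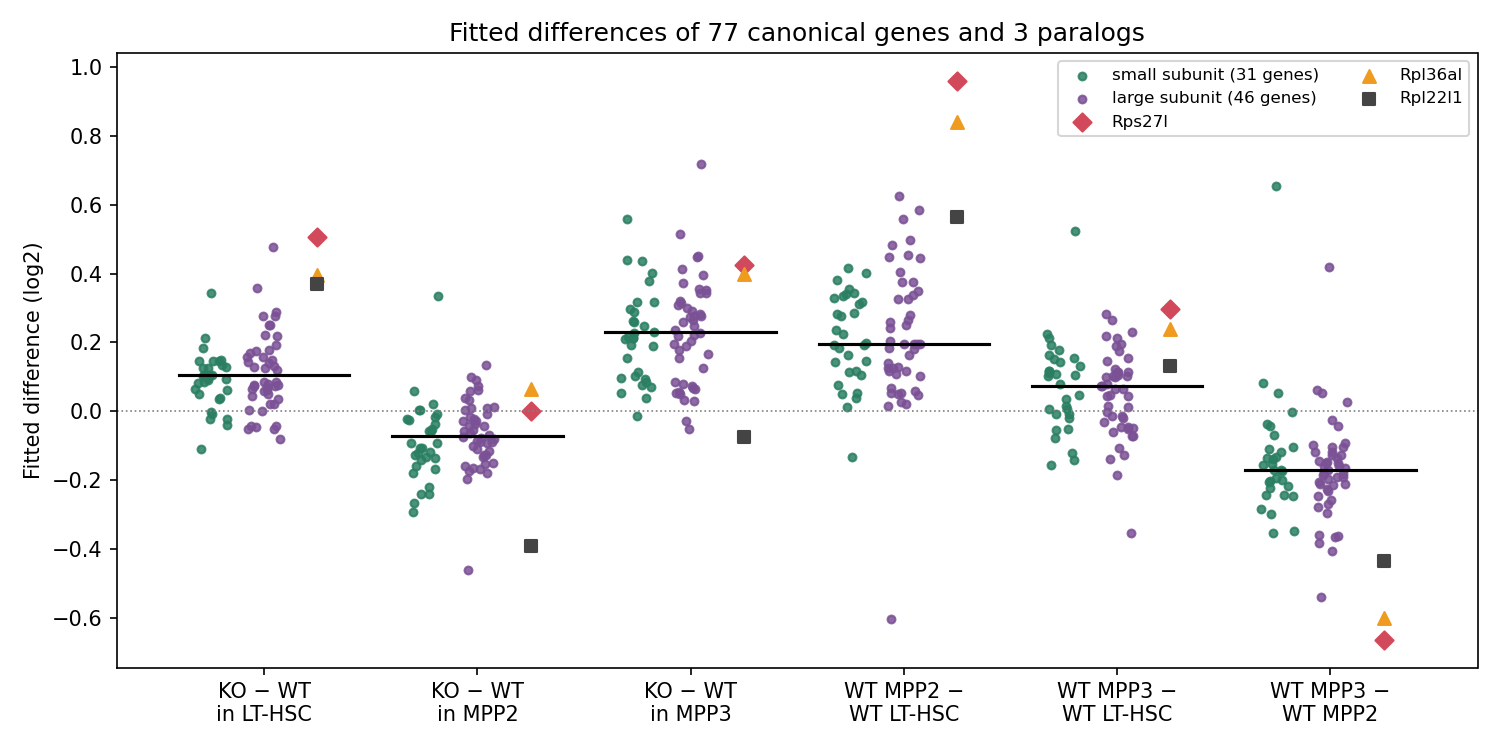
Fitted difference (log2, edgeR) of 31 small subunit genes, 46 large subunit genes and 3 paralogs in 3 comparisons of KO with WT and 3 of WT populations. Each point is a gene, the black lines are the medians over all 88 tested genes, and only Rps27l in the fourth and sixth comparison passed the threshold. Of the 77 canonical genes, 74 lie above 0 in MPP3 KO minus WT, between -0.051 and 0.72, and 75 in WT MPP2 minus WT LT-HSC, between -0.61 and 0.63.

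Rpl5 and Rpl11, which together bind Mdm2 and hold back its action on p53, were compared next. Rpl11 was at 294, 326, 307 and 288 CPM in WT MPP3 and at 353, 500, 356 and 364 CPM in KO MPP3, without overlap (0.37 ± 0.14, adjusted p = 0.88, edgeR). Rpl5 was at 368, 345, 338 and 318 CPM in WT MPP3 and at 371, 402, 396 and 378 CPM in KO MPP3, each KO library above each WT library. In LT-HSC, Rpl5 was at 359, 385 and 361 CPM in KO and at 355 and 345 CPM in WT, without overlap but with a narrow gap. Of all genes, 7.53% were higher in KO without overlap in LT-HSC and 1.07% in MPP3. Rpl11 overlapped in LT-HSC, and in MPP2 both genes overlapped between genotypes.

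The 3 stalk proteins Rplp0, Rplp1 and Rplp2, which recruit translation factors to the large subunit, show how unevenly KO MPP3 2 departs. Rplp1 was at 1989 CPM in KO MPP3 2 and at 826, 883 and 893 CPM in the other KO MPP3 libraries. Rplp2 was at 1002 CPM there and at 648, 772 and 816 CPM in the others. Rplp0 was at 1341 CPM there, below the 1727, 2141 and 2108 CPM of the others. Of the 88 genes, 53 were above and 20 below all 3 other KO MPP3 libraries in this library, against 34.4% and 31.4% of all genes. Rps12 (1.33), Rplp1 (1.20), Rpl13a (1.16) and Rpl39 (1.0) had the largest log2 ratios of the canonical genes, and Rpl15 (-0.66) and Rplp0 (-0.57) the lowest. Across the 77 canonical genes the log2 ratio had a Spearman correlation of -0.20 with principal transcript length. The lengths are annotated ones, the longest among ties, and were not checked against the reads. They reach 5179 bases for Rps15a and 3706 for Rps20, whose ratios were 0.81 and 0.72. The correlation is a description of 1 library. The library has 10.3% rRNA and 12.8% mitochondrially encoded counts, and the part of these in the ratios was not tested.

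**Figure D4:**
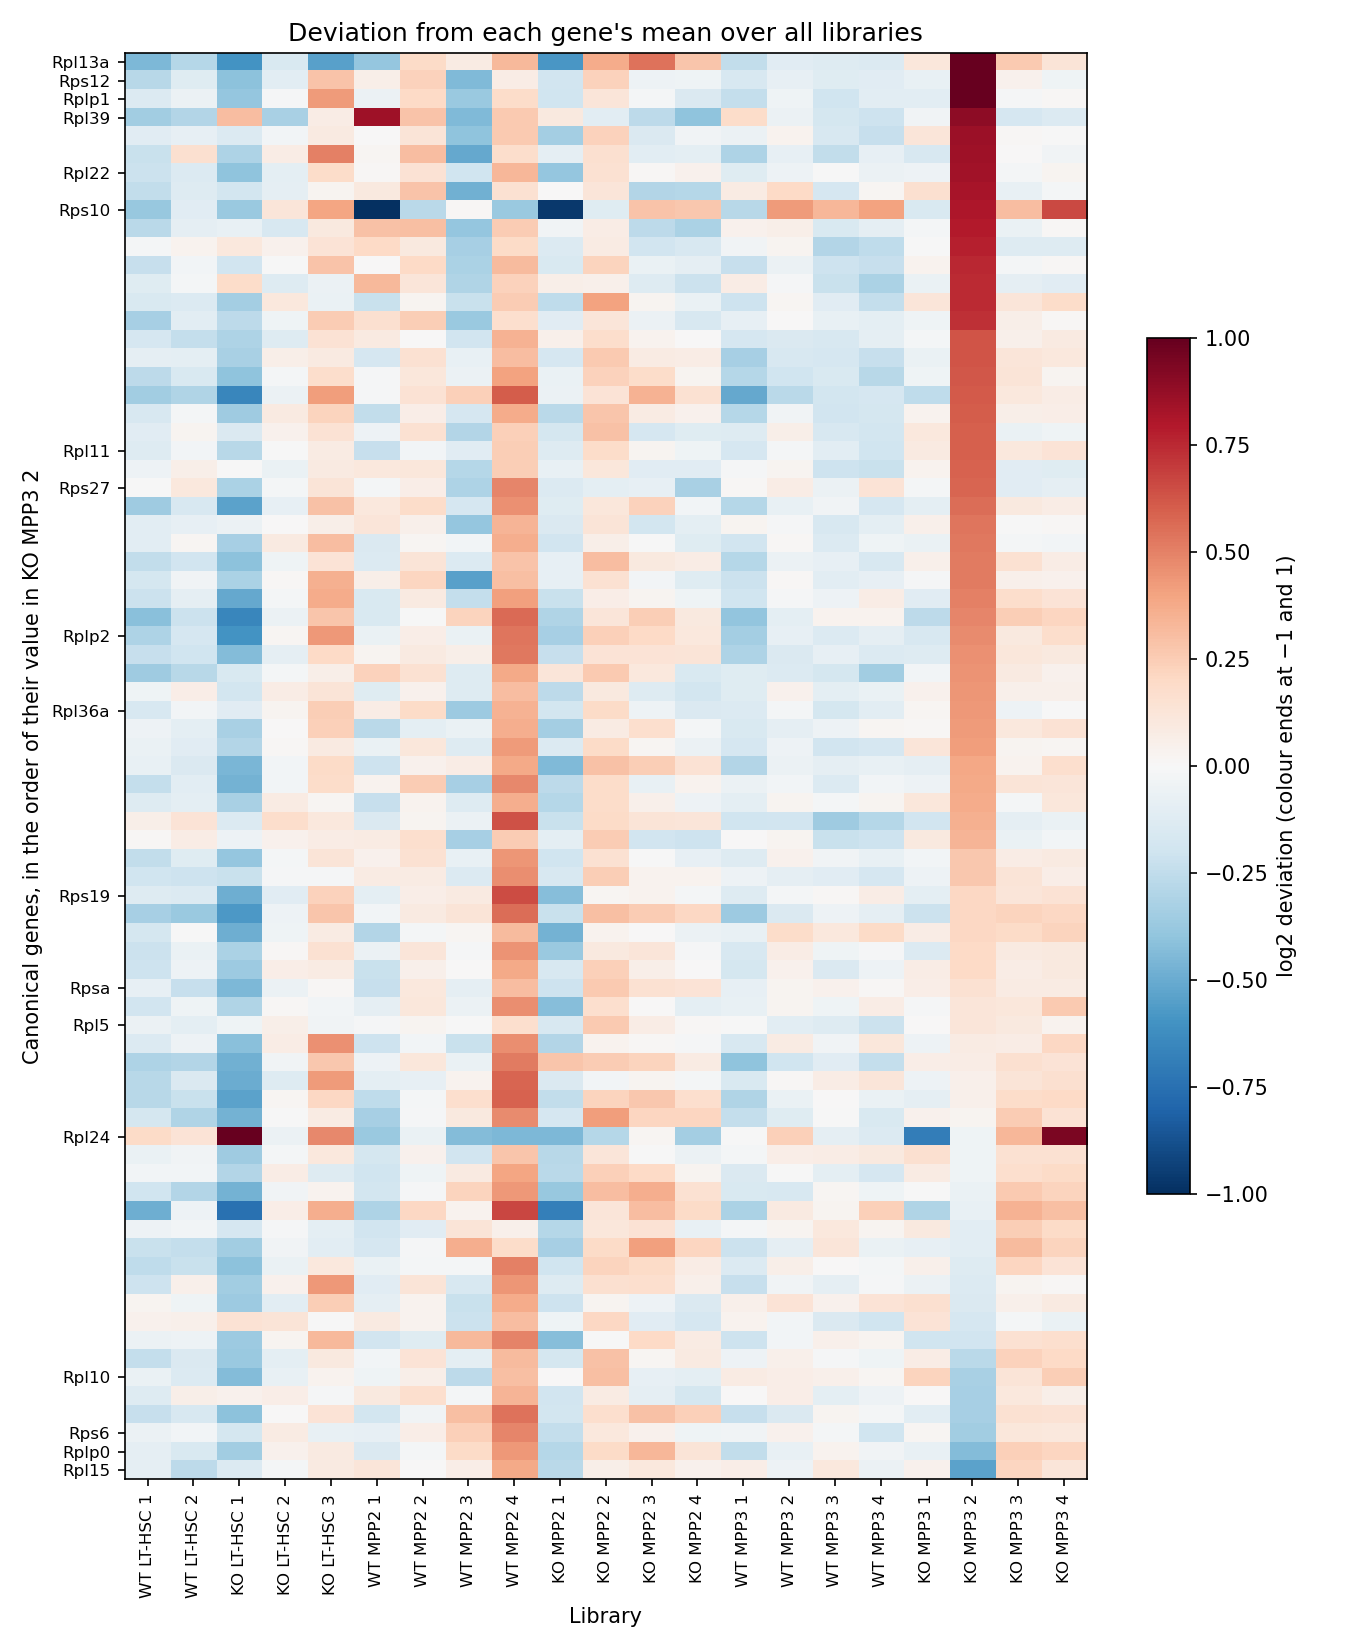
Deviation (log2) of each of the 77 canonical genes from its mean over the 21 libraries, with genes in the order of their value in KO MPP3 2, libraries by group, and names beside some of the genes described in the text. Most genes are raised in WT MPP2 4 and lowered in KO LT-HSC 1, with Rpl24 the other way in both, while the column of KO MPP3 2 runs from above 1 (Rpl13a, Rps12) to below -0.4 (Rpl15, Rplp0).

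Other genes of known function are each given for a single population, and of these only Rpsa did not overlap between genotypes. Rps19, the gene most often mutated in Diamond-Blackfan anaemia, was at 1262 and 1259 CPM in WT LT-HSC and at 986, 1279 and 1622 CPM in KO LT-HSC, with the KO values on both sides of WT. Rps6, whose protein is phosphorylated by the S6 kinases, was at 495, 521, 500 and 442 CPM in WT MPP3 and 513, 399, 549 and 547 CPM in KO MPP3, which overlapped. Rpsa, the laminin receptor of the small subunit, was at 949, 1021, 1031 and 1010 CPM in WT MPP3 and 1047, 1115, 1063 and 1064 CPM in KO MPP3, without overlap. Rpl10, mutated in T-cell leukaemia, was at 623, 617, 610 and 598 CPM in WT MPP3 and 688, 470, 646 and 698 CPM in KO MPP3, which overlapped through KO MPP3 2.

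Between KO populations 0 of the 88 genes passed, where 1.81% of all genes were called in KO MPP2 minus KO LT-HSC, 2.64% in KO MPP3 minus KO LT-HSC and 0.886% in KO MPP3 minus KO MPP2 (edgeR). At an unadjusted p below 0.05 there were 3, 2 and 1 of the 88, against 16.3%, 15.6% and 14.5% of all genes. Without overlap, 2, 4 and 1 genes were higher and 0, 1 and 0 lower, against 6.59%, 5.28% and 3.5% higher and 7.62%, 6.73% and 3.59% lower among all genes. The medians were 0.03, 0.19 and 0.14, with 53, 77 and 69 genes above 0, against 52.5%, 51.9% and 48.1% of all genes. Without KO LT-HSC 1, the library with the lowest shift, the first 2 medians were -0.07 and 0.07, and without KO LT-HSC 3 they were 0.15 and 0.30. Without KO MPP3 2 the second and the third were 0.10 and 0.035. Without KO MPP2 1, KO MPP3 1 and KO MPP3 2 all 3 medians were 0.07, 0.12 and 0.02, in a fit where the medians of all genes were -0.04, -0.07 and -0.03. The gene closest to the threshold was Rpl13a, with 38.3, 52.5 and 39.9 CPM in KO LT-HSC and 62.9, 148, 70.1 and 63.8 CPM in KO MPP3, without overlap (0.98 ± 0.29, adjusted p = 0.0875, edgeR). Rpl13a passed in DESeq2 (adjusted p = 0.0227) and with the replicate number as a block (adjusted p = 0.0394), but not with the block by mouse (adjusted p = 0.055, edgeR). The difference rested in part on KO MPP3 2: it was 0.59 without that library (adjusted p = 0.206) and 0.61 without these 3 libraries (adjusted p = 0.0989), both in edgeR. The level of Rpl13a is among those of uncertain counts.

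The range of title numbers moved some genes within every progenitor group. In all 4 groups Rpl4, Rpl13, Rpl14, Rpl32, Rpl7l1 and Rps19bp1 were higher, and Rpl39 lower, in both libraries above 100 than in both below. These are 6 (6.82%) and 1 (1.14%) of 88 genes, against 2.89% and 2.72% of all genes. Rpl7l1 averaged 175 and 265 CPM (below and above 100) in WT MPP2, 192 and 273 in KO MPP2, 163 and 191 in WT MPP3 and 137 and 233 in KO MPP3. Rpl39 averaged 1182 and 757, 785 and 623, 821 and 687, and 1110 and 704 CPM in the same order. Each range holds WT and KO libraries in equal number in these groups. The ranges also differ in the markers of the MPP2 libraries, and the cause of these differences was not tested.

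The genes of related lists were read beside the ribosomal proteins. Over all genes, 49.6% were above 0 and 0.63% called in WT MPP2 minus WT LT-HSC, 50.5% were above 0 and 0.00948% called in KO minus WT in MPP3, and 2.64% were called in KO MPP3 minus KO LT-HSC. Fau and Rack1, small subunit genes outside the pattern, were both above 0 for KO minus WT in MPP3, with Rack1 at 0.35 ± 0.13 (adjusted p = 0.88, edgeR), and neither passed in any comparison. Of 26 other genes with terminal oligopyrimidine mRNAs, mostly translation factors, 20 were above 0 in WT MPP2 minus WT LT-HSC (median 0.35) and 22 in KO minus WT in MPP3 (median 0.19), and 0 passed. Of 7 chaperones that escort new ribosomal proteins, 0 passed in any comparison. Of 11 genes of the p53 arm, 0 passed, with Cdkn1a at 1.62 ± 0.61 in WT MPP2 minus WT LT-HSC (adjusted p = 0.247, edgeR). Among 18 genes that control mTORC1 and growth, Mycn, a MYC family factor, fell by 2.20 on the log2 scale in KO MPP3 minus KO LT-HSC (SE 0.47, adjusted p = 0.0135, edgeR), and it was also lower in KO MPP2 (adjusted p = 0.0234). Mxd4, a MYC antagonist, rose by 0.97 ± 0.24 in KO MPP3 minus KO LT-HSC (adjusted p = 0.0316, edgeR) and was higher in KO MPP3 than in KO MPP2 (adjusted p = 0.0314).

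The proteins of the mitochondrial ribosome, which are coded in the nucleus by other genes, are given for comparison. Of 77 tested, 75 were above 0 in WT MPP2 minus WT LT-HSC with a median of 0.53 (log2), where the median of the cytosolic set was 0.20, and 75 were below 0 in WT MPP3 minus WT MPP2 with a median of -0.43, against 49.6% and 48.0% of all genes. Mrpl18 (1.13 ± 0.23, adjusted p = 0.0328) and Mrps18c (1.33 ± 0.29, adjusted p = 0.0436) passed in the first comparison and Mrpl42 (-0.73 ± 0.17, adjusted p = 0.0406) in the second, in edgeR, where 0.63% and 1.2% of all genes were called. The difference between the 2 medians was not tested.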

How the data were processed

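The authors deposited raw counts of reads per gene. Reads were aligned to mm10 by STAR, as the submitters' processing notes list. No source used here gives the STAR version, the counting program or its treatment of reads that match several genes. Groups came from the labels. Symbols, biotypes and principal transcripts (APPRIS, the longest among ties) came from GENCODE M21, which matched 54409 of 54446 identifiers. The table held 0 columns of other samples, and 0 pairs of libraries were identical.

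Counts were fitted in R 4.3.3 with edgeR 4.0.16 (robust quasi-likelihood, TMM factors), all 21 libraries in 1 fit of 6 group means. The filter filterByExpr, with a minimum count of 10, kept 21100 genes and 88 of the 92 members. The 4 not tested, Rpl9-ps1, Rpl10l, Rpl36-ps4 and Rps12-ps3, had 15 to 37 counts in all. P values were adjusted by Benjamini-Hochberg over all genes, with a threshold of 0.05. CPM are TMM-scaled, and logs of CPM used a pseudocount of 0.5. A count of 0 was set against 3 counts, which covers counting error only. The script was tested on simulated data. Alternatives used limma 3.58.1 and DESeq2 1.42.0, other scaling, no filter, other samples or terms in the fit, and the leaving out of libraries.

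Genes were named as the 3 of smallest p in each comparison where fewer than 3 passed, with the paralogs and their counterparts, the stalk, Rpl5, Rpl11, Rpsa, Rps19, Rps6, Rack1 and Rps19bp1, and up to 3 of each related list. Some genes that this rule names are not reported here. Others were named after their values were seen, and the members and lists were chosen with earlier results of these data known. Promoter windows are RefSeq's.

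Libraries of 1 genotype and number were taken as 1 mouse in the block by mouse. The title number of KO LT-HSC 3 follows those of the KO libraries numbered 4, so it was also put with that mouse. The design text names pairs of WT and KO mice but not which mice were paired. Deviations from group means of same-numbered WT and KO libraries correlated at 0.298 to 0.343 in MPP2, 0.114 to 0.217 in MPP3 and 0.058 to 0.061 in LT-HSC. Differently numbered libraries of the same title-number range correlated at 0.137 to 0.367 in MPP2 and 0.035 to 0.206 in MPP3. Across the 2 ranges all correlations in MPP2 and MPP3 were below 0. These values therefore cannot tell pairing by number from the range of title numbers. Populations of 1 mouse are not independent samples, so p-values between populations rest on libraries that partly share mice. In bulk counts, fewer cells of a type and less RNA per cell cannot be told apart.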

Additional observations from a re-analysis of the deposited data

Results flagged for a closer look

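Of 96 groups of 4 libraries examined for a value far from the rest, 15 held one. A chance rate of about 1 in 20 would hold for independent groups chosen before their values were seen. It cannot be set against this count, because some genes were named after their values were seen. Many of the flags also share the library KO MPP3 2, and some are at very low counts. The library KO MPP3 2 stood far above the other 3 KO MPP3 libraries in Rps27 (1100 CPM), Rpl36a (529 CPM), Rpl22 (920 CPM), Rpl13a (148 CPM), Rpl11 (500 CPM), Rpl39 (1454 CPM), Rplp1 (1989 CPM) and Rpl39l (1.76 CPM). It is also the library with 10.3% rRNA and 12.8% mitochondrially encoded counts.

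The library KO MPP2 1, in which 45.8% of counts were from immunoglobulin genes, was far below its group in Rps19 (1030 CPM) and in the share of counts in the set (2.46%), and above it in Rpl3l (0.904 CPM). KO MPP3 1, with 25.8%, was far below its group in the share of counts (4.42%). At very low counts, Rpl3l stood out in WT MPP2 2 (3.39 CPM) and Rpl39l in WT MPP2 1 (0.0806 CPM) and WT MPP3 3 (0.916 CPM).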

How the results depend on the processing

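Of the values recomputed for single genes of the set, 922 kept their direction and side of the threshold. Another 20 lost and 9 gained a call, and 18 changed sign. Of the medians of the set, 147 moved by less and 2 by more than 1 SD between libraries within groups (0.165, log2). This SD exceeds several of the medians themselves, so a median could change sign and count as unmoved. The KO minus WT median in LT-HSC did so, at 0.10 and at -0.0071 without KO LT-HSC 3. The count of genes called between WT MPP2 and WT LT-HSC was 2 with DESeq2 and limma voom (Rps27l and Rpl36al). It was 0 without a filter on low counts, with the other groups out of the model and within title numbers below 100, with adjusted p for Rps27l of 0.0673, 0.100 and 0.160. The count in WT MPP3 minus WT MPP2 was 2 with DESeq2 and with title-number range as a term, and 0 without the filter, with only the groups compared, and within title numbers below and above 100. Without single libraries both counts ran from 0 to 1. In the other comparisons of populations, 1 gene was called in WT MPP3 minus WT LT-HSC with only the groups compared (Rpl3l, at very low counts), in KO MPP3 minus KO LT-HSC with DESeq2 (Rpl13a), and in KO MPP2 minus KO LT-HSC without KO MPP2 1, KO MPP3 1 and KO MPP3 2 (Rpl13a, 0.78 ± 0.17, adjusted p = 0.0189). The cause of each of these was not tested.

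The replicate number was also fitted as a block. Same-numbered WT and KO libraries deviated together in MPP2 and MPP3, as did differently numbered ones of the same title-number range. The block changed no call of the set between KO and WT. With it 2 genes were called in WT MPP3 minus WT MPP2 (Rps27l and Rpl36al) and 1 in KO MPP3 minus KO LT-HSC (Rpl13a). With the replicate block by mouse, within a genotype, 0 were called in WT MPP2 minus WT LT-HSC (Rps27l, 0.86 ± 0.19, adjusted p = 0.0991), and also 0 with KO LT-HSC 3 put with mouse 4 (adjusted p = 0.0720). Phf6 in LT-HSC was -3.83 with the block (adjusted p = 0.282).

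Phf6 kept its direction and lost its call in LT-HSC with limma voom (-4.01), only the groups compared (-3.97), the title-number range as a term (-3.95) and within title numbers below 100 (-4.23). It did so in MPP2 within title numbers below (-3.93) and above 100 (-3.02), and in MPP3 with only the groups compared (-3.84), without the 3 libraries (-3.36) and within title numbers above 100 (-2.90). Without single libraries it ran from -4.25 to -3.67 in LT-HSC, from -3.79 to -3.27 in MPP2 and from -4.11 to -3.55 in MPP3. Its call was then lost in all 5 fits in LT-HSC (adjusted p 0.111 to 0.571), in 2 of 8 in MPP2 (without KO MPP2 2 or 3) and in 1 of 8 in MPP3 (without KO MPP3 1), with adjusted p of at most 0.0524 in both.

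Within title numbers above 100, where KO LT-HSC had 1 library, the median was -0.17 for KO MPP2 minus KO LT-HSC and -0.093 for KO MPP3 minus KO LT-HSC. The share of counts in WT LT-HSC was 6.27% with immunoglobulin, mitochondrially encoded and rRNA genes out of the total. For KO minus WT in MPP2, Rps27l was -0.013 with DESeq2 and with RLE factors, -0.014 without the filter, -0.0043 with only the groups compared and -0.077 within numbers above 100, and ran from -0.10 to 0.061 without single libraries. Rpl36al there was -0.079 without the 3 libraries and -0.14 within numbers above 100, and ran from -0.061 to 0.14 without single libraries. For KO minus WT in MPP3, Rpl22l1 was 0.0020 and 0.091 under the same 2 settings. For KO MPP3 minus KO MPP2, Rpl36al was 0.019 and 0.048 and Rpl22l1 0.012 and 0.10 under them. For KO MPP3 minus KO LT-HSC, Rps27l was -0.071 within numbers below 100. These 2 settings, the split by title number and the placing of KO LT-HSC 3 were chosen after seeing the data. Rpl3l and Rpl39l had 0 counts in several libraries, where low input, depth and absence cannot be told apart. The groups of 2 to 4 libraries limited the precision of the rest.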
